A study of Mus musculus with 4 samples.

Results

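The core pluripotency transcription factors are the regulators that hold mouse embryonic stem cells in the undifferentiated state. The set described here was named by symbol and comprised Pou5f1, Sox2, Nanog, Sall4, Utf1, Zfp281, Foxd3, Dppa2 and Dppa4, 9 genes of the 43629 gene identifiers counted. The rule that lists them uses no measured value, but the set was chosen with earlier results of these data known. The measurements came from poly(A) RNA sequencing of mouse embryonic stem cells of 129/Ola background, derived from the blastocyst and grown with serum and LIF. There were 2 Drosha knockout libraries, both at passage 7, in which Drosha, which encodes the nuclear RNase of primary microRNA processing, was disrupted by paired CRISPR/Cas9 cuts. KO1 lacks the proline-rich region of Drosha and KO2 the region rich in arginine and serine. They were set against 2 wild-type libraries of the standard mouse line E14, at passage 33 (WT1) and passage 42 (WT2), both labelled as re-used. The knockout names also carry a mark, d5, that the labels do not explain. Each allele is represented by 1 library, and genotype, passage and the origin of the libraries coincide and cannot be told apart. Within a group the 2 libraries differ in allele or in passage, and the labels name no replicate cultures of either. The p-values therefore reflect the spread between these samples alone, which mixes allele or passage with any technical difference. Paired values below are given for KO1 then KO2 and for WT1 then WT2.

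OCT4, the product of Pou5f1, and SOX2 bind DNA side by side at composite sites in the enhancers of pluripotency genes, their own included, and NANOG joins them there. SALL4 and ZFP281 are zinc finger factors that bind with the NuRD chromatin remodelling complex, UTF1 is a chromatin-bound factor of undifferentiated cells, and FOXD3 is a forkhead factor needed to maintain the early embryo's epiblast. DPPA2 and DPPA4 are paired SAP-domain proteins that keep developmental promoters open and act upstream of the genes of the 2-cell stage. Loss of OCT4 turns such cells towards trophoblast, and loss of NANOG towards primitive endoderm.

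Utf1 was the 1 factor of 9 that passed the test, and it rose in the knockouts to 283 ± 30.7 CPM, against 65.6 ± 24.3 CPM in the wild types (SD, n = 2 each). The other 8 did not pass in either direction, and all 9 were expressed in all 4 libraries. Levels are given in CPM, the deposited counts scaled to a common library total after TMM normalisation, which balances libraries by a trimmed mean of gene ratios. Over all 17022 genes tested with edgeR's quasi-likelihood test, 5.45% passed at a Benjamini-Hochberg adjusted p under 0.05, of which genes higher in the knockouts made up 3.51% of those tested and genes lower in them 1.94%. With 9 members, a single call is too few to read against that background. The smallest adjusted p over all genes was 0.0482, so each call lay close to the threshold. In DESeq2, which called 22.7% of genes (12.4% higher and 10.3% lower), Utf1 was called higher and Zfp281 lower. At an unadjusted p under 0.05 in edgeR, 5 of the 9 passed, beside 37.1% of all genes.

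Library totals lay between 29264632 and 42322129 counts, so that 3 counts were worth 0.0676 to 0.0972 CPM, below the level of every member. The knockout libraries were alike, with a chi-square per degree of freedom of 2.26 over 14837 genes, against 166.7 over 14688 genes for the wild-type pair. Drosha itself had 158 and 158 CPM in the knockouts, against 364 and 357 CPM in the wild types. The gene-level count does not show which region was deleted. In bulk RNA, fewer cells of a type and less RNA per cell cannot be told apart.

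The members differ widely in base composition, and the fold changes are set against it below, so a piece of coding sequence is shown from the middle of 4 of them. Each is the central 120 bases of the coding part of the longest annotated transcript (GENCODE M21, build mm10), in the sense of the mRNA, with CpG dinucleotides in capitals. The genes lie on chromosome 7 (Utf1), 17 (Pou5f1), 6 (Nanog) and 1 (Zfp281).
Utf1: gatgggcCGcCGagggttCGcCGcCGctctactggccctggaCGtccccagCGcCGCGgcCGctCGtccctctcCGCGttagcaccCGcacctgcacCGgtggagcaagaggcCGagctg
Pou5f1: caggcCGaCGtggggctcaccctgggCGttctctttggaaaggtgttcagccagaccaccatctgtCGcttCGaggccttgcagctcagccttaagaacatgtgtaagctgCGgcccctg
Nanog: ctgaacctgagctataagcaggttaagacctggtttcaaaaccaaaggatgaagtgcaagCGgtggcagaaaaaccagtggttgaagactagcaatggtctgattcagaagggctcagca
Zfp281: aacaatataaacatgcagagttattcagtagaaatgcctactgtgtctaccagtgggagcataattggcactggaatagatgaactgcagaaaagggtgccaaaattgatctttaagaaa
The Utf1 stretch has 74.2% G and C with 16 CpG dinucleotides, and the Zfp281 stretch has 37.5% with 0. The Pou5f1 stretch stands at 60.0% and the Nanog stretch at 46.7%. Over the whole transcript the GC content was 65.1% for Foxd3, 63.5% for Utf1, 57.6% for Pou5f1, 53.8% for Sall4, 50.5% for Sox2, 49.0% for Dppa4, 45.8% for Nanog, 43.6% for Dppa2 and 43.1% for Zfp281.

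Pou5f1 (ENSMUSG00000024406, chromosome 17, 35506018 to 35510772, plus strand, build mm10) was, per length, the most abundant of the set in both knockout libraries. It had 1132 and 1109 CPM in the knockouts, against 847 and 527 CPM in the wild types. Both knockouts lay above both wild types, and the wild types were further from each other than either knockout was from its partner. The log2 fold change of KO over WT was 0.71 ± 0.26 (SE) and did not pass (edgeR adjusted p = 0.135). Against WT1 alone it was 0.40 and against WT2 alone 1.09. In those fits the spread came from the knockout pair alone, and 70.3% and 79.7% of all genes passed, so that all 9 factors did as well and no call is read from them. The annotated antisense gene Gm19553 covers 14.1% of the exon bases of Pou5f1 and had 1.56 and 1.62 CPM in the knockouts, against 0.175 and 0.583 CPM in the wild types. Whether the counting used strand is not given in the sources used here. Reads counted for this partner were few beside those of Pou5f1, but they do not show how many reads in the shared bases went uncounted.

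Sox2 (ENSMUSG00000074637, chromosome 3, 34650405 to 34652461, plus strand), a gene with no intron inside its transcript, was the member whose groups overlapped. Its level was 468 and 466 CPM in the knockouts, against 320 and 649 CPM in the wild types. The knockouts therefore sat between the wild types, and the log2 fold change was -0.05 ± 0.36 (edgeR adjusted p = 0.926). The sign depended on the wild-type library, with 0.55 against WT1 alone and -0.47 against WT2 alone. The log2 ratio of WT2 over WT1 was 1.02 for Sox2, the largest of the 9. More than 2-fold between WT2 and WT1 either way was seen for 1 of 9 members, beside 18.3% of all tested genes.

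Nanog (ENSMUSG00000012396, chromosome 6, 122707489 to 122714633, plus strand) had 491 and 488 CPM in the knockouts, against 615 and 719 CPM in the wild types. Both knockouts lay below both wild types by more than the gap between the wild types, yet the fold change of -0.45 ± 0.14 on the log2 scale did not pass (edgeR adjusted p = 0.0990). The processed pseudogene Nanog-ps1 had 0 to 8 counts per library. Of the 50-base stretches of the longest Nanog transcript, 4.76% occurred in other annotated genes, and 2.78% in Nanog-ps1.

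**Figure D1:**
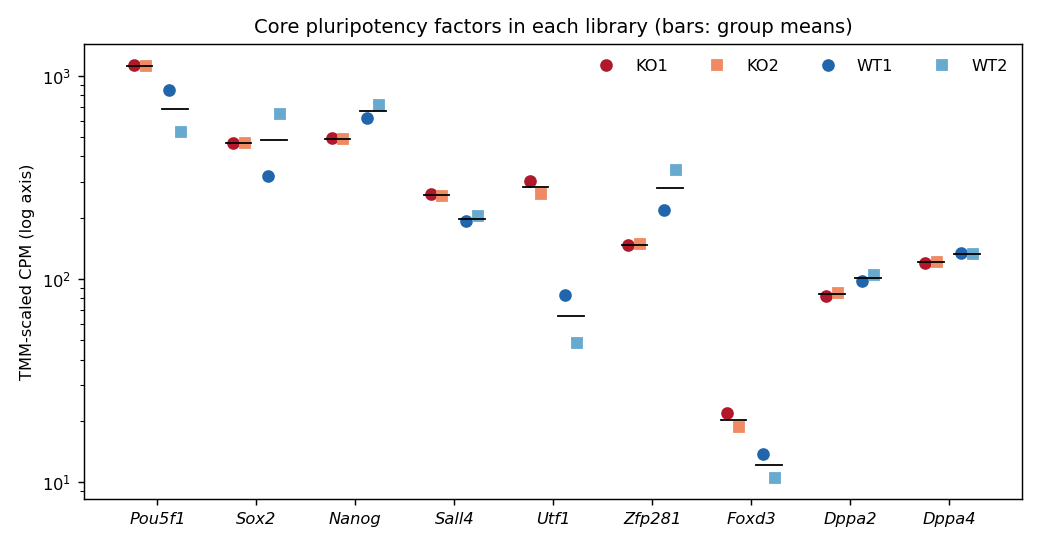
TMM-scaled CPM (log axis) of the 9 factors in KO1, KO2, WT1 and WT2, with a bar at each group mean. The knockout points nearly coincide for most genes, Utf1 shows the widest gap between groups (283 against 65.6 CPM), and Sox2 has its knockout points between its wild-type points.

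Sall4 (ENSMUSG00000027547, chromosome 2, 168748332 to 168767943, minus strand) had 262 and 254 CPM in the knockouts, against 192 and 204 CPM in the wild types. The libraries of each group were close to each other and the groups did not overlap. Its log2 fold change was 0.38 ± 0.12 (edgeR adjusted p = 0.0969). The antisense gene Gm14261, which covers 9.50% of its exon bases, had 6 and 9 counts in the knockouts, against 14 and 13 counts in the wild types.

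Zfp281 (ENSMUSG00000041483, chromosome 1, 136624901 to 136630053, plus strand), which encodes a zinc finger repressor that also promotes exit towards the primed state, was the lowest of the set relative to wild type. It had 146 and 149 CPM in the knockouts, against 218 and 342 CPM in the wild types. The groups did not overlap, and the log2 fold change was -0.93 ± 0.25 (edgeR adjusted p = 0.0832, DESeq2 adjusted p = 0.0141). The difference was -0.56 against WT1 alone and -1.21 against WT2 alone. Genes of chromosome 1 as a whole stood at a median of -0.51 on the same scale, and for WT2 over WT1 at a median log2 ratio of 0.54, where Zfp281 had 0.65. The part of the chromosome in the value of Zfp281 was not tested.

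Utf1 (ENSMUSG00000047751, chromosome 7, 139943789 to 139945112, plus strand) had 304 and 261 CPM in the knockouts, against 82.8 and 48.4 CPM in the wild types. The lower knockout library was over 3 times the higher wild-type library. The log2 fold change was 2.11 ± 0.31 (edgeR adjusted p = 0.0482), with 1.77 against WT1 alone and 2.55 against WT2 alone. Taken 1 at a time against both wild types, KO1 gave 2.21 ± 0.43 (edgeR adjusted p = 0.124) and KO2 gave 1.99 ± 0.42 (adjusted p = 0.212), so the call was lost without either knockout library. Both alleles share their controls. No 50-base stretch of the Utf1 transcript occurred in another annotated gene.

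Foxd3 (ENSMUSG00000067261, chromosome 4, 99656299 to 99658622, plus strand) was, per length, the least abundant member in all 4 libraries. It had 21.7 and 18.7 CPM in the knockouts, against 13.7 and 10.4 CPM in the wild types. The groups did not overlap, and the log2 fold change of 0.74 ± 0.21 did not pass (edgeR adjusted p = 0.0914).

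Dppa2 and Dppa4 are neighbours on the plus strand of chromosome 16, with 9670 bases between the end of Dppa4 (ENSMUSG00000058550, 48283733 to 48294237) and the start of Dppa2 (ENSMUSG00000072419, 48303908 to 48319723). Dppa2 had 82.2 and 85.3 CPM in the knockouts, against 97.6 and 104.5 CPM in the wild types. Dppa4 had 120.1 and 121.1 CPM in the knockouts, against 134.2 and 131.9 CPM in the wild types. Both genes were slightly lower in the knockouts with no overlap between the groups, and neither passed (log2 fold change -0.27 ± 0.12 with adjusted p = 0.174 for Dppa2, and -0.14 ± 0.11 with adjusted p = 0.390 for Dppa4, both edgeR). Per length, the ratio of Dppa2 to Dppa4 was 0.465 and 0.478 in the knockouts, against 0.494 and 0.538 in the wild types. Counts of both are uncertain, because processed pseudogenes carry 29.1% of the 50-base stretches of the Dppa2 transcript and 35.9% of those of Dppa4. The pseudogene Gm9788, which matches Dppa2, was counted at 21.8 and 23.7 CPM in the knockouts, against 25.6 and 17.8 CPM in the wild types. The pseudogene Gm14058, which matches Dppa4, was counted at 15.8 and 14.1 CPM in the knockouts, against 13.5 and 9.24 CPM in the wild types.

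Across the set, the groups did not overlap for 8 of the 9 members, 4 with the knockouts above and 4 with the knockouts below. Over all tested genes 71.3% had groups that did not overlap, 36.5% above and 34.8% below. The median log2 fold change was -0.05 over the 9 and -0.02 over all genes. The summed level of the 9 was 3027 and 2952 CPM in the knockouts, against 2520 and 2736 CPM in the wild types.

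The fold changes of the 9 ran broadly with the GC content of the transcripts, as did those of all genes. The 16903 tested genes with an annotated sequence were split by GC content into 10 bins of equal size. The median log2 fold change of KO over WT was 1.12 in the bin richest in GC and -0.65 in the poorest. Pou5f1, at 0.71, was itself the median gene of the 1689 in its bin. Nanog at -0.45 stood beside a median of -0.42, Sall4 at 0.38 beside 0.45, Sox2 at -0.05 beside 0.0013 and Dppa4 at -0.14 beside -0.17. These 5 of 9 members lay within 0.2 of the median of genes with similar GC content. The share of all tested genes that close to their bin median was not computed, so this count is a description only. Utf1, at 2.11, stood 0.99 above the median of its bin, while Foxd3, in the same bin, stood at -0.38 relative to it. Dppa2 was 0.24 above and Zfp281 -0.41 relative to the bin they share, whose median was -0.51.

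**Figure D2:**
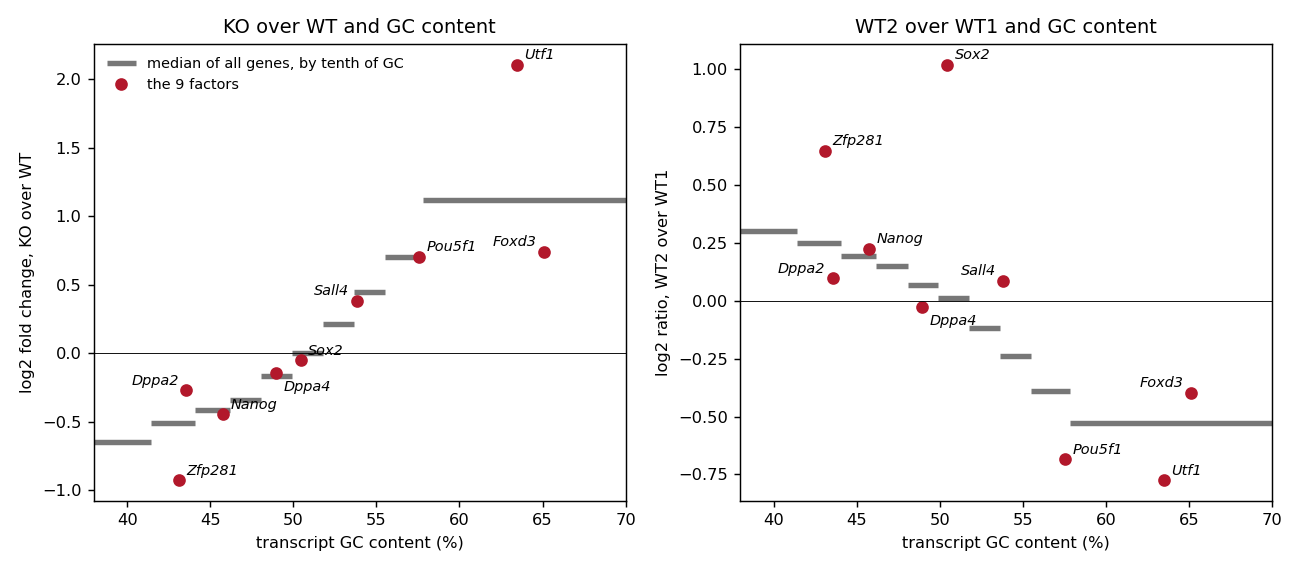
The left panel plots the log2 fold change of KO over WT, and the right panel the log2 ratio of WT2 over WT1, against transcript GC content in percent, with grey lines at the median of all tested genes in each of 10 GC bins and red points for the 9 factors. On the left the medians climb to 1.12, and 5 of the 9 factors lie within 0.2 of them. Utf1 stands 0.99 and Dppa2 0.24 above the median of its bin, Zfp281 at -0.41 and Foxd3 at -0.38 relative to it. On the right the medians descend to -0.53 and Sox2 lies apart at 1.02.

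When smooth trends of each library over GC content and exon length were removed, 0 of the 9 factors and 0 of all genes passed in edgeR, where 3 of the 9 and 4270 of all genes had an unadjusted p under 0.05. Utf1 then stood at 0.56 ± 0.11 on the log2 scale (edgeR adjusted p = 0.105) and Zfp281 at -0.46 ± 0.16 (adjusted p = 0.181). Foxd3 turned to -0.96 ± 0.15 (adjusted p = 0.0967), Pou5f1 to -0.17 ± 0.14 and Dppa2 to 0.12 ± 0.12. Nanog was at -0.14 ± 0.09, Sall4 at 0.01 ± 0.15, Sox2 at -0.09 ± 0.33 and Dppa4 at -0.07 ± 0.10. Utf1 was thus the member above 0 and Foxd3 and Zfp281 the members below 0 by over 2 standard errors on this scale, none of them past the threshold.

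**Figure D3:**
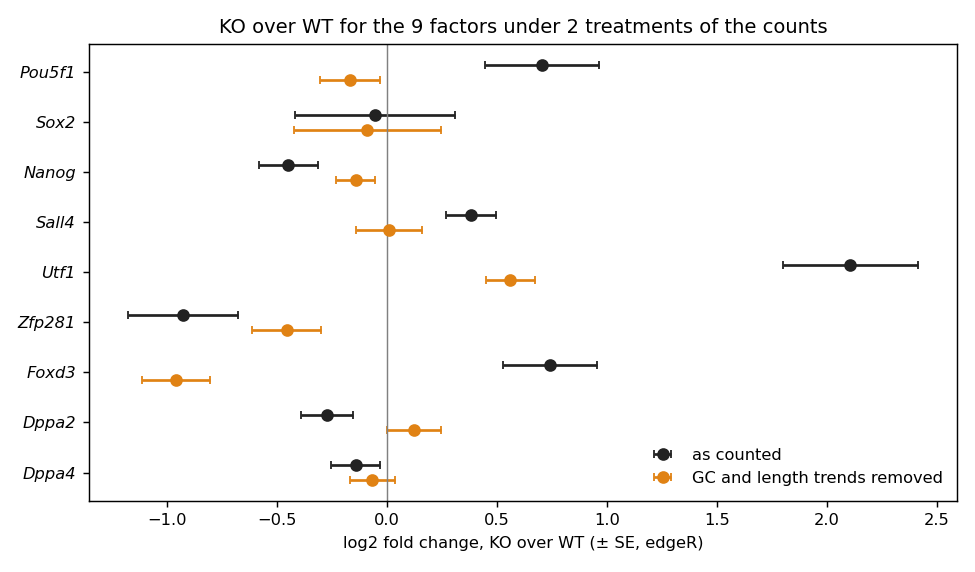
Log2 fold change of KO over WT with its standard error for the 9 factors, as counted (black) and with GC and length trends removed (orange). Removing the trends moved Utf1 to 0.56 and Foxd3 to -0.96, and brought Pou5f1, Nanog, Sall4 and Dppa4 to between -0.17 and 0.01.

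The wild-type libraries differed from each other more than the knockout libraries did. Between KO1 and KO2 the largest log2 ratio among the 9 was 0.22, for Utf1, followed by 0.21 for Foxd3, and the other 7 lay between -0.05 and 0.04. No member differed by more than 2-fold there, beside 1.08% of all genes. Between WT2 and WT1, without a test since each passage has 1 library, Utf1 was at -0.77, Pou5f1 at -0.68 and Foxd3 at -0.40, while Sox2 was at 1.02, Zfp281 at 0.65 and Nanog at 0.23. Dppa2 (0.10), Sall4 (0.09) and Dppa4 (-0.02) were nearly level. This contrast also ran with GC content, in the opposite direction, with a median of -0.53 in the bin richest in GC and 0.30 in the poorest. Sox2 stood 1.01 above the median of its own bin, and Nanog 0.03 above.

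**Figure D4:**
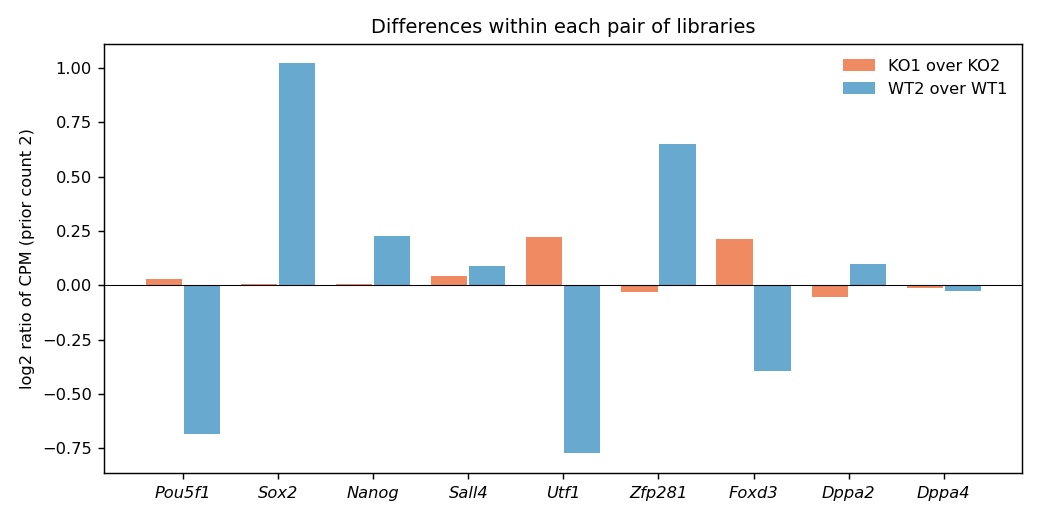
Log2 ratio of CPM (prior count 2) for KO1 over KO2 (orange bars) and WT2 over WT1 (blue bars) for the 9 factors. The orange bars stay within 0.22 of 0, whereas the blue bars run from -0.77 for Utf1 to 1.02 for Sox2.

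Levels of different genes were compared per kilobase of annotated exon. Exons were joined over all transcripts of a gene, which gave 2248 bases for Pou5f1, 2242 for Nanog and 2057 for Sox2. Their longest coding transcripts have 1362, 2211 and 2057 bases. Per base of that transcript Pou5f1 would stand higher. Its place in the wild types and the ratios to it therefore hold for annotated exon length only. In the knockouts Pou5f1 was highest, at 503 CPM per kb in KO1 and 493 in KO2, rank 93 and 95 of 16903 genes. Utf1 (248 and 213 CPM per kb), Sox2 (228 and 226) and Nanog (219 and 218) came next, and Utf1 spanned the other two, so these 3 were not separated beyond the spread. Dppa4 followed at 72.3 and 72.9 CPM per kb, then Sall4 (47.3 and 45.9), Dppa2 (33.6 and 34.8), Zfp281 (29.5 and 30.1) and Foxd3 (9.34 and 8.05). By annotated exon length, the wild types had no common order at the top. WT1 had Pou5f1 first at 377 CPM per kb, then Nanog at 274 and Sox2 at 155, whereas WT2 had Nanog first at 321, then Sox2 at 315 and Pou5f1 at 235. Per length, the ratio of Nanog to Pou5f1 was 0.435 in KO1 and 0.442 in KO2, against 0.728 in WT1 and 1.37 in WT2. That of Utf1 to Pou5f1 was 0.493 in KO1 and 0.431 in KO2, against 0.179 in WT1 and 0.168 in WT2. Utf1 took rank 183 and 221 in the knockouts, against rank 810 in WT1 and 1698 in WT2.

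**Figure D5:**
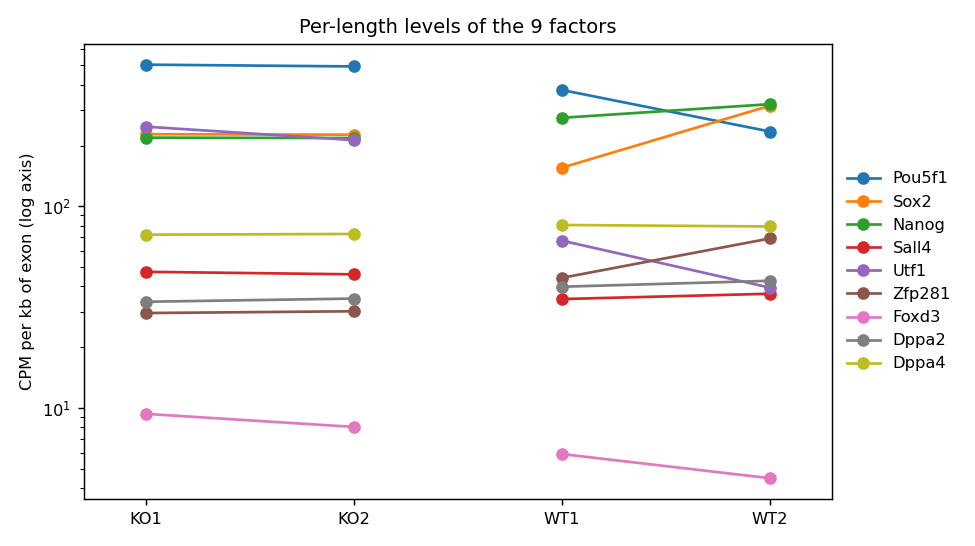
CPM per kb of annotated exon (log axis) of the 9 factors in KO1, KO2, WT1 and WT2, with a line joining the libraries of a group. The order is the same in KO1 and KO2 apart from Utf1, Sox2 and Nanog, which lie between 213 and 248, while the lines cross between WT1 and WT2.

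The genes most like the 3 central factors were taken from 5870 named genes with a mean log2 CPM of at least 5, by Euclidean distance between centred log2 CPM over the 4 libraries. Nearest to Nanog were Fip1l1 and Ap3b1, at 0.0147 and 0.0151 on the log2 scale, and nearest to Sox2 were Lamp2 (0.0416) and Myef2 (0.0515). Nearest to Pou5f1 were 2310022A10Rik (0.0256) and Gdf3 (0.0270), which encodes a TGF-beta family ligand of the early embryo. Gdf3 had 76.1 and 73.1 CPM in the knockouts, against 56.8 and 35.6 CPM in the wild types. With 4 libraries such likeness is a description only.

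Promoter sequence is shown for Nanog, whose promoter holds the composite element bound by OCT4 and SOX2, and for Utf1, the factor that passed. Both run from 250 bases before to 50 bases after a RefSeq transcription start (GRCm38.p6), at chr6:122707239-122707538 and chr7:139943606-139943905, plus strand. Capitals mark the match to the OCT-SOX composite core in Nanog, searched with 1 base left free, and to GGGCGG, the GC box, in Utf1.
Nanog: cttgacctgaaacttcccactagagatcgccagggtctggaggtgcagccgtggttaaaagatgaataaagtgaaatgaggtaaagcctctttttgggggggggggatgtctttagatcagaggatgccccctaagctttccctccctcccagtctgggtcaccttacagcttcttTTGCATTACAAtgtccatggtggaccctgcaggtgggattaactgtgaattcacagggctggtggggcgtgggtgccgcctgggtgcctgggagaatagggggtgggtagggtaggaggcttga
Utf1: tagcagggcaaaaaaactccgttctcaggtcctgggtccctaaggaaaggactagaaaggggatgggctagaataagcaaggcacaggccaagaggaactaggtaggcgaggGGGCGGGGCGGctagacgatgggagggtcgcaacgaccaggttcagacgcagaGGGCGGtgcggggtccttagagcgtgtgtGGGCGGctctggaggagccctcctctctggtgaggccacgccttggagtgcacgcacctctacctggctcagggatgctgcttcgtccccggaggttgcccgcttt
Both strands were searched. The composite core occurred in 0.149% of the 32851 RefSeq promoters of this length and, of the 6 members with a listed promoter, in Nanog. The GC box occurred in 35.7% of promoters. It had 4 matches in Utf1, the first pair overlapping by 1 base, 4 in Zfp281, 2 in Sox2 and 1 in Pou5f1. The octamer ATGCAAAT, found in 1.74% of promoters, had no match in these 6. The Utf1 promoter has 62.0% G and C and that of Zfp281 70.7%, against a median of 52.7% over all listed promoters. A match is a description of the letters only.

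Since the targeted enzyme starts microRNA production, the transcripts of the 9 factors were searched for sites of the microRNA families known from these cells and from differentiated ones. The mature sequences are given with the seed, bases 2 to 8, in capitals.
miR-294-3p: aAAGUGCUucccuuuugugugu
miR-106a-5p: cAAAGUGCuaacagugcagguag
let-7a-5p: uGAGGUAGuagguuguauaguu
The seed match of miR-294-3p, AGCACTT, which miR-291a-3p and miR-295-3p share, occurred in no 3′ UTR or coding part of the 9, beside 14.5% of 20936 annotated 3′ UTRs and 10.8% of 21901 coding parts. That of miR-106a-5p and miR-20a-5p, GCACTTT, was also found in none of the 9, beside 11.7% of 3′ UTRs and 7.89% of coding parts. The let-7 match, CTACCTC, was found in Sall4, with 3 matches in the coding part and 1 in the 3′ UTR, and once in the coding part of Zfp281, beside 8.86% of 3′ UTRs and 12.6% of coding parts. The Sall4 matches are shown with their flanks, the match in capitals.
Sall4 coding match 1: aacaagccaagCTACCTCatgc
Sall4 coding match 2: ccagtgccctgCTACCTCagac
Sall4 coding match 3: cttctctagggCTACCTCaaaa
Sall4 3′ UTR match: ctttaatttatCTACCTCaatt
Sall4 had the log2 fold change of 0.38 ± 0.12 given above, which did not pass, and 0.01 ± 0.15 once the GC and length trends were taken out. Of 3 further microRNAs reported to act on pluripotency factors in mouse, miR-134-5p had no match in the 9. The miR-296-5p match, GGGGCCC, occurred once in the coding part of Sall4, beside 13.2% of coding parts. The miR-470-5p match, TCCAAGA, occurred in the coding parts of Sall4, Zfp281 and Dppa2, once each, and in the 3′ UTRs of Sall4 (1 match) and Dppa2 (2 matches), beside 18.7% of coding parts and 11.1% of 3′ UTRs.

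Of 20 direct targets and companions of the core factors, 2 rose and 0 fell in edgeR, 18 did not pass and 8 had an unadjusted p under 0.05, while DESeq2 called 2 higher and 2 lower. Over all genes 5.45% passed in edgeR, 37.1% had an unadjusted p under 0.05 and DESeq2 called 22.7%, so these counts were near the background. The median log2 fold change was 0.10, and -0.03 once the GC and length trends were taken out. Lefty1, an inhibitor of NODAL signalling, had 114 and 109 CPM in the knockouts, against 6.31 and 14.96 CPM in the wild types (log2 of KO over WT 3.39 ± 0.47, edgeR adjusted p = 0.0482). Upp1, which encodes a uridine phosphorylase, had 562 and 564 CPM in the knockouts, against 286 and 315 CPM in the wild types (0.90 ± 0.12, edgeR adjusted p = 0.0482). Once the GC and length trends were taken out, neither passed (Lefty1 at 2.23, Upp1 at 0.61).

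Of 15 tested relatives of the core factors in their gene families, 0 rose and 1 fell in edgeR, with 6 at an unadjusted p under 0.05, and DESeq2 called 1 higher and 2 lower. These counts were near the shares over all genes, 5.45% in edgeR, 37.1% at that unadjusted p and 22.7% in DESeq2. Pou2f1, which encodes the widely expressed OCT1, had 93.5 and 96.9 CPM in the knockouts, against 221 and 184 CPM in the wild types (log2 of KO over WT -1.09 ± 0.15, edgeR adjusted p = 0.0482, and -0.57 once the trends were taken out). It lies on chromosome 1, as Zfp281 does. The median of the list was 0.14, and it turned to -0.24 once the trends were taken out. Sall1 had 270 and 267 CPM in the knockouts, against 206 and 220 CPM in the wild types, which did not pass (0.34 ± 0.11, edgeR adjusted p = 0.119).

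None of the 13 subunits of NuRD passed in edgeR, where 9 had an unadjusted p under 0.05, and DESeq2 called 2 higher and 4 lower, beside 37.1% of all genes at that unadjusted p and 12.4% higher and 10.3% lower in DESeq2. Their median log2 fold change was -0.39, with 4 fitted above 0 and 9 below, and the median was -0.37 once the GC and length trends were taken out. The histone deacetylase gene Hdac2 had the smallest adjusted p, 0.0511, at 165 and 170 CPM in the knockouts, against 267 and 308 CPM in the wild types. Of the 10 tested genes of the 2-cell list, which lie downstream of DPPA2 and DPPA4, none passed in edgeR or DESeq2 and 1 had an unadjusted p under 0.05. Zscan4c had 45 and 66 counts in the knockouts, against 56 and 2 counts in the wild types, and Eif1a, a general translation factor gene with the smallest p, made up most of the list's level.

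Markers of embryonic stem cells outside the set were present in all libraries. Of 6, Alpl (alkaline phosphatase) rose, at 290 and 282 CPM in the knockouts, against 108 and 114 CPM in the wild types (log2 of KO over WT 1.37 ± 0.12, edgeR adjusted p = 0.0482), and the other 5 did not pass. Once the GC and length trends were taken out, Alpl stood at 0.63 (edgeR adjusted p = 0.146). Markers of other cell types follow. Over all tested genes 5.45% passed in edgeR and 37.1% had an unadjusted p under 0.05. DESeq2 called 12.4% higher and 10.3% lower. With 2 to 8 tested markers in each list, stem cell markers included, a single call is too few to read against those shares. Of 8 tested primitive endoderm markers, 2 fell in edgeR (Cubn and Lama1), 7 had an unadjusted p under 0.05, and DESeq2 called 7 lower. All 8 were fitted below 0, with a median log2 fold change of -2.70, and -2.89 once the trends were taken out. The summed level of the 9 listed was 52.8 and 51.3 CPM in the knockouts, against 201 and 359 CPM in the wild types. The higher wild-type sum was that of WT2, which had less Pou5f1, Utf1 and Foxd3 than WT1 and more Sox2, Zfp281 and Nanog. Of 6 tested trophoblast markers Tfap2c rose, 1 had an unadjusted p under 0.05 and DESeq2 called 1 higher, and the list median was 0.68, against -0.07 once the trends were taken out. Their sum over 9 was 129 and 124 CPM in the knockouts, against 77.1 and 62.0 CPM in the wild types, while the defining marker Cdx2 stayed between 0.0278 and 0.225 CPM in all 4. Of 4 tested neurectoderm markers Pax6 and Tubb3 rose, all 4 had an unadjusted p under 0.05 and DESeq2 called 2 higher. Once the trends were taken out, Tubb3 went to 0.14 (edgeR adjusted p = 0.744), Pax6 stood at 2.64 (adjusted p = 0.0910), and the list median was 0.11, against 1.01 as counted. Tubb3 alone gave 73.2 and 71.2 CPM in the knockouts, against 30.5 and 35.5 CPM in the wild types, and the sum of 6 was 102.0 and 102.3 CPM in the knockouts, against 46.5 and 55.7 CPM in the wild types. Of 7 tested fibroblast markers none passed in edgeR, where 3 had an unadjusted p under 0.05 and DESeq2 called 2 higher, and the sum of 9 was 51.2 and 47.5 CPM in the knockouts, against 40.4 and 26.8 CPM in the wild types. Most of that sum was Thy1, at 40.8 and 41.5 CPM in the knockouts, against 31.5 and 25.9 CPM in the wild types. Dcn, with the smallest p of this list (edgeR adjusted p = 0.0639), had 51 and 24 counts in the knockouts. Lum had 5 and 3 counts there and Postn 22 and 8, and all 3 genes were at 0 in both wild types. Col3a1 had 47 and 14 counts in the knockouts, against 1 and 0 counts in the wild types. The tested fibroblast markers had a median log2 fold change of 1.13, and 0.56 once the trends were taken out. Of them 6 were fitted above 0 and 1 below as counted. The latter was Acta2, with 34 and 53 counts in the knockouts, against 222 and 2 counts in the wild types. Of 2 tested mesoderm markers none passed in either tool, with 1 at an unadjusted p under 0.05. The latter was Fgf8, with 9 and 13 counts in the knockouts, against 4 and 2 counts in the wild types. The part of these cell types in the values of the 9 factors was not tested.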

How the data were processed

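The deposited values are raw read counts per Ensembl gene, 1 table for each of 4 libraries, with no normalisation. The submitters' processing notes name STAR 2.4.2a, featureCounts 1.4.5-p1 and the build mm10. The gene annotation, and how strand, overlapping genes and multiply matching reads were handled, are not given in the sources used here. Those settings can shift counts between a gene and its antisense partner or pseudogenes. A symbol was found for 42462 identifiers (97.3%). Coordinates, exon length and GC content came from GENCODE M21 of the same build, promoters and microRNAs from RefSeq (GRCm38.p6).

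Differences were tested by edgeR's quasi-likelihood test (edgeR 4.0.16, R 4.3.3) after TMM scaling. The model held group only, the default expression filter was kept (minimum count 10, minimum total 15), and p-values were adjusted by Benjamini-Hochberg over every tested gene. Alternatives included DESeq2 1.42.0, other scalings, no filter, each library left out, a replicate block and removal of GC and length trends. Log2 fold changes are KO over WT. Trends were lowess curves (span 0.3) of each library's log2 CPM over GC content and exon length, removed as offsets. The scripts were tested on simulated counts with the same spread in both groups, unlike these data, so that test does not bear on the calls here. Library totals of 29264632 to 42322129 counts make counting error small for these genes.

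The members and lists were chosen with earlier results of these data known. The text names all 9 members, and of each other list the genes past the threshold or the one with the smallest p. Genes singled out beyond that (Sall1, Zscan4c, Cdx2, Thy1, Lum, Postn, Col3a1, Acta2 and the pseudogenes) were named after their values were seen. Figures used matplotlib 3.10.9 in Python 3.11.15.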

Additional observations from a re-analysis of the deposited data

How the results depend on the processing

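The number of genes past the threshold, 927 in edgeR, was 3757 in DESeq2, 2663 with no filter on low counts and 1929 with a replicate block. It was 0 with upper-quartile scaling, with library totals alone, with GC and length trends removed, with the replicate block and these trends removed, and with the knockout libraries summed as 1 sample, and these settings left 6267, 6116, 4270, 3229 and 1821 genes below 0.05 before adjustment. The count of the 9 factors past the threshold, 1 in edgeR, was 2 in DESeq2 and 2 with no filter, where Zfp281 joined Utf1, 1 with the replicate block, and 0 under the other 5 settings. Leaving out 1 library at a time gave 0 to 13572 genes and 0 to 9 factors. Both counts were 0 without KO1 or KO2, where 1689 and 1944 genes and 1 factor each lay below 0.05 before adjustment. Without WT1 the counts were 13572 genes (79.7%) and 9 factors, and without WT2 11963 genes (70.3%) and 9 factors, because the spread then comes from the knockout pair and the lone wild-type library is assumed to vary like it.

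Of the single fold changes, these turned direction: Pou5f1 to -0.17, Foxd3 to -0.96 and Dppa2 to 0.12 with GC and length trends removed, and to -0.16, -0.96 and 0.13 with the block added; Sox2 to 0.11 with library totals, 0.036 with the replicate block and 0.55 without WT2 (against -0.47 without WT1); and Dppa4 to 0.0021 with library totals, which put the median of all genes at 0.13, against -0.02 under TMM. Beyond the trend removal, which takes out the GC and length trends by construction, the cause was not tested. Utf1 stayed above 0 under all 12 alternatives, between 0.56 and 2.55, and lost its call under 7 of them. Nanog, Sall4 and Zfp281 kept their direction under all 12. The replicate numbers mark an allele in the knockouts and a passage in the wild types, and name no shared culture. Deviations of KO1 and WT1 from their group means had a correlation of 0.0461 over genes. That value cannot exclude a pairing, because the knockout libraries barely differed (chi-square per degree of freedom 2.26). The replicate block changed no call among the 9 factors.

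With 2 libraries a group and 1 library for each allele and passage, no interval separates genotype from passage or library origin. Depth was not the limit for the 9 factors, the lowest of which, Foxd3, had 375 counts in WT2.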
